A study of Mus musculus with 16 samples.

Results

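The MHC class II presentation machinery was followed here as 10 genes, found by symbol among the 56691 genes of the count matrix: the chains of the class II molecules *H2-Aa*, *H2-Ab1* and *H2-Eb1*, the peptide editors *H2-DMa*, *H2-DMb2*, *H2-Oa* and *H2-Ob*, the invariant chain *Cd74*, the transactivator *Ciita* and the protease *Ctss*. Single light zone (LZ) germinal center (GC) B cells were sorted from the lymph nodes of 8 mouse hosts, and their transcriptomes were read by SMART-seq2, a plate method that sequences full-length cDNA of 1 cell per well. Each host had received 2 kinds of B1-8hi B cells, which carry a knock-in heavy chain giving a high-affinity receptor for the hapten NP. One kind was BTKC481S, a knock-in point mutation with which BTK, the kinase downstream of the B cell receptor, resists acalabrutinib, and the other was BTKWT. Per the study's methods the hosts were young male mice of C57BL/6J or B6.SJL stock, primed with ovalbumin and boosted with NP-ovalbumin. Hosts A7, A8, A10, A11 and A12 were given acalabrutinib and hosts V5, V7 and V9 vehicle, each as repeated oral doses. The labels describe 16 samples in 4 groups of genotype and treatment. The cell names hold the host, plate and well and no genotype, so both genotypes of a host were summed and genotypes were not compared.

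The matrix holds 637 cells, between 45 and 130 per host, with a median of 789357 counts and 3989 genes per cell. By Seurat cell cycle scores 248 cells were in G1 (non-cycling here), 241 in S and 148 in G2M (together 389 cycling). Of all cells, 35 (5.49%) lay within 0.05 of the score at which the call changes, and whether the states are separate types or ranges of a score was not tested. *Myc*, which marks LZ cells that have received T cell help, had at least 1 count in 177 cells (Myc-positive), between 5 and 50 per host. The sort was checked against marker lists. All 6 GC markers, all 4 LZ markers and all 5 markers of the dark zone, the other zone of the GC, had counts in at least 10% of cells. Among the dark zone markers *Foxo1* had a count in 72.8% and *Cxcr4* in 53.4% of cells. Of 6 B cell markers 5 had counts in at least 10% of cells, and *Cd79a* had a count in 99.5% of cells. None of 8 T cell markers reached 10% of cells, and their summed level was between 0.859 and 22.8 CPM (counts scaled to a common total per library) in the acalabrutinib hosts and between 0 and 12.7 in the vehicle hosts. Of 11 myeloid and dendritic cell markers, 2 (*Flt3* and *Adgre1*) reached 10% of cells, and the summed level of the list was between 93.3 and 119 CPM in the acalabrutinib and between 100.1 and 104 in the vehicle hosts. *Adgre1*, a macrophage marker, had counts in 38.1% of cells at a mean of 8.39 CPM, *Flt3*, a marker of dendritic cell precursors, in 29.8% at 63.4 CPM and the macrophage marker *Cd68* in 9.11%. With at least 10 counts required, the shares were 4.71% for *Adgre1*, 21.5% for *Flt3* and 8.16% for *Cd68*. *Lyz2* and *Csf1r*, also of macrophages, had counts in 0.471% and 2.20% of cells and *Cd3e*, which defines T cells, in 0.157%. The part of such transcripts in the results was not tested.

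A class II molecule is a pair of an alpha and a beta chain that displays peptides of internalised antigen to CD4 T cells. The invariant chain CD74 fills the groove of a new pair, cathepsin S (*Ctss*) cleaves it down to the fragment CLIP, and the DM dimer (*H2-DMa* with a DM beta chain) exchanges CLIP for antigen peptide, while the DO dimer (*H2-Oa* with *H2-Ob*) restrains DM. CIITA is the master switch of the genes that encode these chains and acts through RFX and NF-Y factors bound at the X and Y boxes of their promoters. In the GC, B cells present captured antigen to T follicular helper cells in the LZ. In the working model that the study describes, the amount presented sets the help that they receive. The study reports that signaling through the B cell receptor also contributes to selection. Mice of the C57BL/6 background have no functional *H2-Ea* gene, so their *H2-Eb1* product does not reach the surface as an I-E molecule.

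Of the 10 genes, 7 lie on chromosome 17, in the order *H2-Oa*, *H2-DMa*, *H2-DMb2*, *H2-Ob*, *H2-Ab1*, *H2-Aa* and *H2-Eb1*, with *H2-DMb1*, a close copy of *H2-DMb2*, between *H2-DMb2* and *H2-Ob*. The RefSeq promoter table (GRCm38.p6) matched 7 of the 10 genes and had no entry for *H2-Ab1*, *Cd74* and *Ciita*. In the 250 bases before the start site, the Y box letters TGATTGG were found in 5 of these 7 genes and the X1 box core AACNNATG in 4, searched on both strands. In 3 of them (*H2-Eb1*, *H2-DMb2* and *H2-Ob*) the X1 core began 28, 29 and 26 bases before the Y box. Among all 32851 promoters of the table the Y box letters were found in 7.23% and the X1 core in 7.71%, and 11 promoters (0.0335%) held an X1 core 20 to 35 bases before a Y box. The letters and the spacing were chosen with these sequences in view, and a match is a description of the letters and not a test of binding. The stretches around the Y box are shown 5′ to 3′ on the strand of the gene, for the 5 genes that held its letters. The X1 core was not found in *H2-Aa* and *H2-Oa*. Capitals mark the X1 core and the Y box, and *H2-DMb1* is shown beside *H2-DMb2* because 51 of their 60 bases are identical.
H2-Eb1 (chr17:34305766-34305825, plus strand): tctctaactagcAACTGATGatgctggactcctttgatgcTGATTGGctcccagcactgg
H2-DMb2 (chr17:34145117-34145176, plus strand): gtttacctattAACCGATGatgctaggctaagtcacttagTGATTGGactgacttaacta
H2-DMb1 (chr17:34153088-34153147, plus strand): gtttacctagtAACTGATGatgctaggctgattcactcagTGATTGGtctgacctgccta
H2-Ob (chr17:34238806-34238865, plus strand): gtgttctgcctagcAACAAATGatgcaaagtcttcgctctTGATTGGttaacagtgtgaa
H2-Aa (chr17:34287854-34287913, minus strand): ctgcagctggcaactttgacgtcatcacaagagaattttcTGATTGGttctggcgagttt
H2-Oa (chr17:34092294-34092353, plus strand): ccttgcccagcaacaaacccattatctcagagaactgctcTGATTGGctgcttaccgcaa
Neither *H2-DMa* entry nor the *Ctss* promoter held the Y box letters.

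*Cd74* had a count in all 637 cells, and *H2-Ab1*, *H2-Eb1* and *H2-Aa* in 99.8%, 99.8% and 99.4% of them. *H2-DMb2*, *H2-DMa* and *H2-Ob* had a count in 95.9%, 92.2% and 91.5% of cells, *Ctss* in 71.3% and *Ciita* in 67.5%. In the 573 cells with at least 459128 counts, thinning each to that number moved the share from 96.9% to 96.3% for *H2-DMb2*, from 93.2% to 92.5% for *H2-DMa* and from 92.5% to 91.6% for *H2-Ob*. For the sparser genes it moved from 71.6% to 69.8% for *Ctss* and from 70.2% to 68.9% for *Ciita*, and the 64 shallower cells were left out of both values. Of all cells, 267 (41.9%) held a count of all 9 genes that were measured, 252 held 8, and no cell held fewer than 3.

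*H2-Oa*, the alpha chain of DO, was listed at 0 in every cell. *B2m* and *Ms4a1*, which B cells express, were also listed at 0 in every cell of this matrix, so the 0 of *H2-Oa* was not read as a level, the reason was not tested, and the gene enters no comparison below. Its partner chain *H2-Ob* was measured. *H2-DMb1* and *H2-DMb2* are so alike that reads between them may have been split or dropped in counting, and their separate levels are uncertain.

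Per kilobase of merged exon, the levels over the 8 hosts followed the order *Cd74* (1133 ± 149 CPM per kb, SD), *H2-Ab1* (635 ± 74.6), *H2-Eb1* (525.7 ± 57.9), *H2-DMb2* (364 ± 48.5), *H2-Aa* (318 ± 37.5), *Ctss* (226 ± 37.8), *H2-DMa* (149 ± 13.6), *H2-Ob* (143 ± 20.1) and *Ciita* (13.5 ± 2.30). The host ranges of *H2-Ab1* and *H2-Eb1*, of *H2-DMb2* and *H2-Aa*, of *H2-Aa* and *Ctss* and of *H2-DMa* and *H2-Ob* overlapped. Compared within hosts, *H2-Ab1* lay above *H2-Eb1* in every host, per kilobase and in CPM. *H2-DMb2* lay above *H2-Aa* per kilobase in every host, but this order rests on the exon lengths used (1747 and 3798 bases). In CPM *H2-Aa* was the higher of the pair in every host, at a mean of 1209 against 635. It was also above *H2-Eb1* (1022) in CPM. The order of *H2-Aa* and *Ctss* and that of *H2-DMa* and *H2-Ob* changed between hosts, so these neighbours were not separated. The range of *Cd74* lay above all others and that of *Ciita* below all others. Exon lengths came from GENCODE M21, while reads in introns were counted too, so the order is approximate.

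Among the cells of this gate the structural chains and *Cd74* were the least spread. From the 10th to the 90th percentile of cells, *Cd74* ran from 1142 to 2927 CPM (2.56-fold), *H2-Ab1* from 1067 to 2424 (2.27-fold) and *H2-Aa* from 715 to 1899 (2.66-fold). The editors were more spread. *H2-DMb2* ran from 150 to 1127 CPM, *H2-DMa* from 29.9 to 938 and *H2-Ob* from 1.53 to 1628. *Ciita* ran from 0 to 426 CPM and *Ctss* from 0 to 745, since their 10th percentile lay among cells without a count. The part of detection in these spreads was not tested. The sum of the class II genes per cell had a median of 8060 CPM and ran from 5285 to 11455. Within the 5 hosts sorted on more than 1 plate, the plate medians of this sum differed most in A11 (6641 and 8071) and least in A12 (7746 and 7884).

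The comparison of acalabrutinib with vehicle asks whether blocking BTK in part of the transferred cells changed the transcripts of the machinery that presents antigen. No difference larger than the spread between hosts was found for any of the 9 genes measured. *Cd74* was at 2253, 2136, 1815, 1565 and 1665 CPM in A7, A8, A10, A11 and A12 and at 2114, 1951 and 1722 CPM in V5, V7 and V9. *H2-Ab1* was at 1948, 1704, 1553, 1435 and 1431 CPM in the same acalabrutinib hosts and at 1836, 1663 and 1477 CPM in the vehicle hosts. For both genes the vehicle values fell inside the range of the acalabrutinib hosts. *Ciita* was at 160, 156, 105, 97.8 and 129 CPM under acalabrutinib and at 131, 128 and 120 CPM under vehicle, again inside that range. *Ctss* was at 271, 239, 356, 299 and 381 CPM under acalabrutinib and at 360, 281 and 274 CPM under vehicle.

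**Figure D1:**
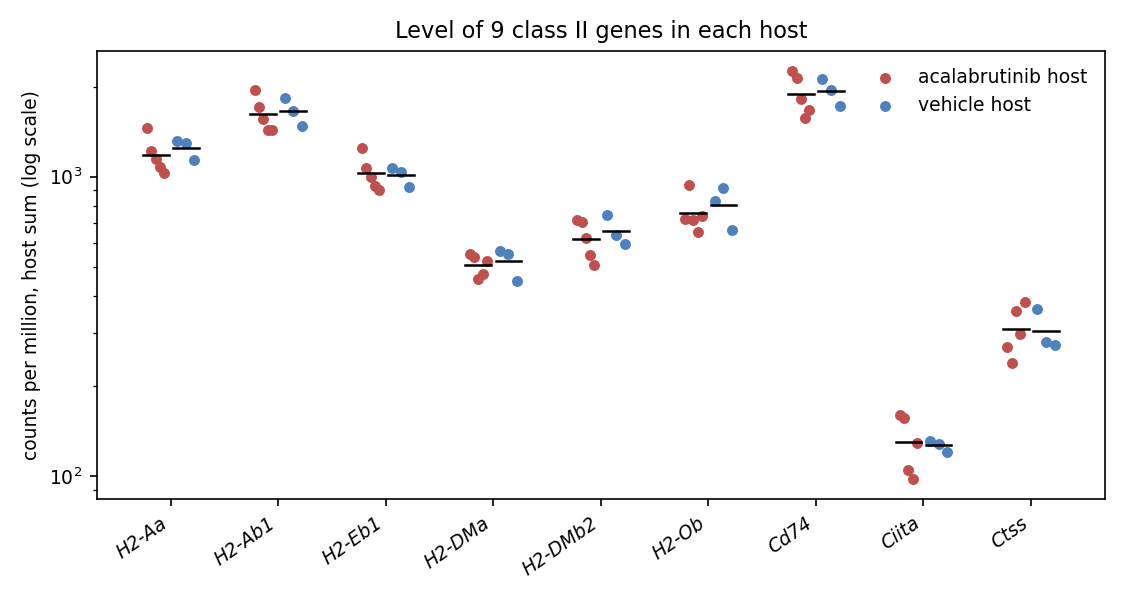
Level of the 9 measured class II genes in each host (CPM of the counts summed over the cells of a host, log scale). Points are hosts, red for the 5 given acalabrutinib and blue for the 3 given vehicle, and lines are group means. The groups overlap for every gene, and *Cd74* is highest and *Ciita* lowest.

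The group means were 1887 ± 298 CPM (SD, n = 5) and 1929 ± 197 (n = 3) for *Cd74*, 1184 ± 169 and 1250 ± 98.9 for *H2-Aa*, 1028 ± 138 and 1011 ± 75.5 for *H2-Eb1*, 508 ± 41.6 and 522 ± 63.8 for *H2-DMa*, 620 ± 93.5 and 660 ± 78.6 for *H2-DMb2* and 753.8 ± 106.8 and 802.3 ± 126.0 for *H2-Ob*, acalabrutinib first. The log2 changes fitted by edgeR's quasi-likelihood test on counts summed per host lay between -0.11 ± 0.19 (standard error) for *H2-Ob* and 0.03 ± 0.24 for *Ciita*, with that of *Cd74* at -0.05 ± 0.20, and the lowest unadjusted p among the 9 was 0.580. None of the 9 was called at an adjusted p under 0.05 by edgeR or by DESeq2. Of all 18016 genes tested edgeR called 0 (0%), with 616 at an unadjusted p under 0.05, and DESeq2 called 80 higher and 14 lower. Since the BTKC481S cells of each host resist the drug and could not be told from the BTKWT cells, these values are those of a mixture. The share of cycling cells, between 42.7% and 67.5% in the acalabrutinib hosts and between 54.5% and 69.2% in the vehicle hosts, overlapped between the groups, and in G1 cells alone none of the 9 was called either, nor any of all 13401 genes tested. The hosts' median class II sum went with the genes detected per cell in both groups. A7, A8, V5 and V7 had medians of 3432, 3604, 3590 and 3764 genes per cell and sums of 9483, 8771, 9633 and 8917 CPM. A10, A11, A12 and V9 had 4058, 4223, 4383 and 4273 genes and sums of 7874, 7474, 7753 and 7520 CPM. The groups were unevenly spread over this split, no term for it was fitted, and its part was not tested.

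Cycling LZ cells held a smaller share of class II transcripts than G1 cells of the same host. All 9 genes were lower in cycling cells on average, and 7 of the 9 passed the test: *H2-Aa*, *H2-Ab1*, *H2-Eb1*, *H2-DMb2*, *H2-Ob*, *Cd74* and *Ciita*. Of all 12686 genes tested, 3.72% were called, 1.26% lower and 2.46% higher in cycling cells. The median log2 change was -0.41 over the 9 genes and 0.14 over all genes tested.

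*Ciita*, the transactivator, had the largest fitted change. It was at 80.0, 104 and 135 CPM (lowest, median and highest host) in cycling cells and at 139, 167 and 216 CPM in G1 cells, so the hosts' values did not overlap. Its level fell by 0.78 ± 0.17 on the log2 scale (standard error), a 1.72-fold lower level, with an edgeR adjusted p of 0.0297. This call was the least stable of the 7: it was lost in 13 of 21 alternative fits, among them those without A7, A10, A11, A12 or V7 (edgeR adjusted p = 0.0717, 0.0663, 0.0660, 0.0759 and 0.0700). The share of cells with a *Ciita* count was 64.3% among cycling and 72.6% among G1 cells.

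*H2-Ob*, the beta chain of the DM inhibitor DO, was at 577, 610 and 811 CPM in cycling cells and at 841, 943 and 1067 CPM in G1 cells, again with no overlap. It was 1.48-fold lower in cycling cells (edgeR adjusted p = 0.00379), a call lost with cycling defined by *Mki67* and *Top2a* counts (0.0900, log2 -0.36). *H2-DMb2*, a beta chain of DM, was at 445, 552 and 683 CPM against 648, 780 and 897 CPM and was 1.45-fold lower (edgeR adjusted p = 0.00385). Both were lower in cycling cells in 8 of 8 hosts.

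*Cd74* was at 1442, 1678 and 2021 CPM (lowest, median and highest host) in cycling cells and at 1871, 2255 and 2785 CPM in G1 cells. The ranges overlapped, but within each of the 8 hosts the cycling cells were lower, and the level was 1.38-fold lower (edgeR adjusted p = 0.00274). The 3 structural chains changed least among the called genes: *H2-Ab1* was 1.25-fold lower (edgeR adjusted p = 0.00196), *H2-Eb1* 1.26-fold (0.00696) and *H2-Aa* 1.28-fold (0.0039), each in 8 of 8 hosts. Within hosts the log2 difference of *H2-Ab1* was -0.29 ± 0.04 (SD, n = 8) and that of *H2-Aa* -0.32 ± 0.08. Without host as a term of the model the 3 chains were not called, while *H2-DMb2*, *H2-Ob*, *Cd74* and *Ciita* were.

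*H2-DMa* and *Ctss* did not pass. *H2-DMa* was at 468 ± 75.2 CPM (SD, n = 8) in cycling and 592 ± 76.5 in G1 cells, with an edgeR adjusted p of 0.153, and in V5 it was 0.42 higher on the log2 scale in cycling cells. Without V5 it was called lower (edgeR adjusted p = 0.0289). *Ctss* was at 279 ± 56.1 CPM against 360 ± 70.2, with an edgeR adjusted p of 0.0900, lower in 8 of 8 hosts.

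**Figure D2:**
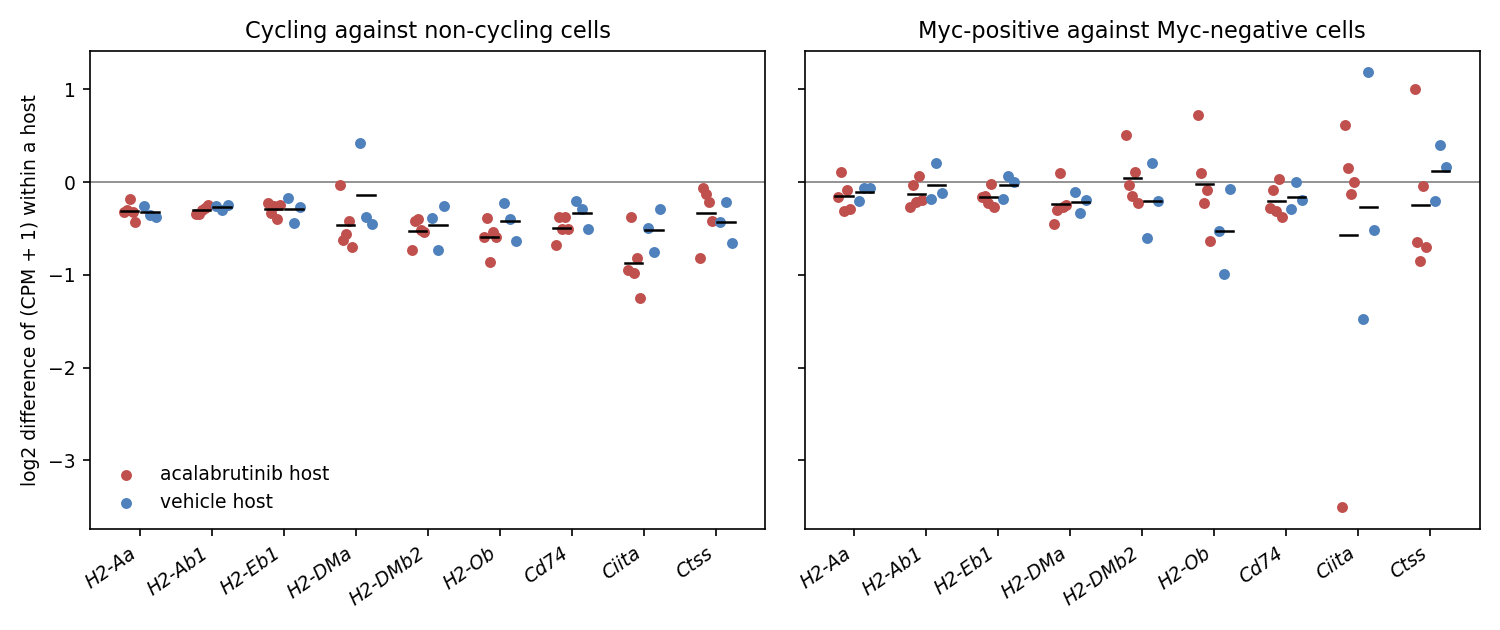
Difference of log2(CPM + 1) within each host between cycling and G1 cells (left) and between Myc-positive and Myc-negative cells (right). Points are hosts, red for acalabrutinib and blue for vehicle, and lines are group means. On the left nearly all points lie under 0, while on the right they lie on both sides, and 1 acalabrutinib host stands at -3.51 for *Ciita*.

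S and G2M cells were each lower than G1 cells. *Cd74* was at 2272 ± 265 CPM (SD, n = 8 hosts) in G1, 1727 ± 244 in S and 1659 ± 227 in G2M cells. *Ciita* was at 173 ± 28.6, 121 ± 39.0 and 91.5 ± 44.9 CPM, and *H2-Ob* at 959.7, 635 and 723 CPM on average. With S or G2M cells set against G1 cells separately, alternatives added after the data were seen, 6 of the 9 genes were called each time, and *Ciita* was not among them (edgeR adjusted p = 0.168 and 0.110). Of all 11517 genes tested, 226 were called higher and 75 lower in S cells. In G2M cells it was 223 and 119 of 10886. The median of the class II sum per cell was highest in G1 cells in 8 of 8 hosts, between 8836 and 10340 CPM, against 6332 to 8486 in S and 6854 to 9633 in G2M cells.

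**Figure D3:**
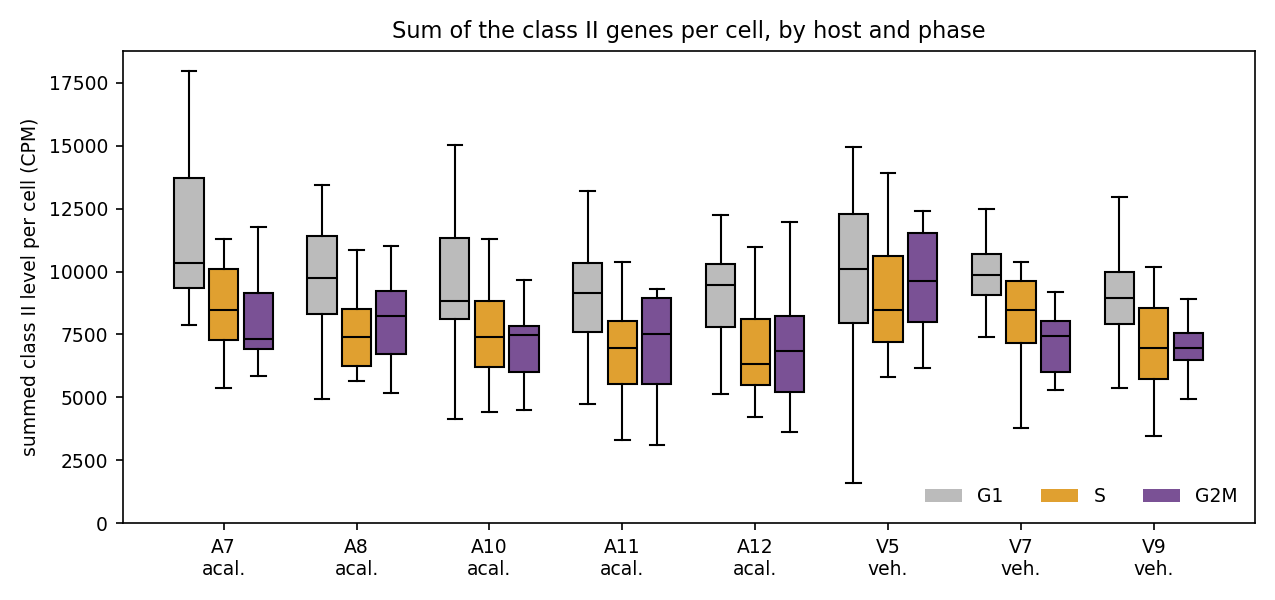
Sum of the class II genes per cell (CPM) for each host and phase. Boxes span the quartiles with the median as a line, whiskers reach the last cell within 1.5 box lengths, and more distant cells are not drawn. In each host the median of G1 cells is above those of S and G2M cells.

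These are shares of all counts of a cell, and the cells differed in how much was counted. Cycling cells had a median of 869386 counts and 4291 genes and G1 cells 687083 counts and 3486 genes, and the mean count per cell was higher in cycling cells by 0.29 ± 0.12 on the log2 scale (SD, n = 8 hosts). Without scaling, the counts per cell of *H2-Ab1* differed by 0.00 ± 0.13, those of *H2-Eb1* by -0.00 ± 0.14 and those of *H2-Aa* by -0.03 ± 0.17, within the spread between hosts. Those of *Ciita* were lower by 0.46 ± 0.34 (log2 -0.46) and those of *H2-Ob* by 0.24 ± 0.17 (log2 -0.24), each in 8 of 8 hosts. Those of *H2-DMb2* differed by -0.21 ± 0.25, lower in 6 of 8 hosts, and those of *Cd74* by -0.14 ± 0.20, lower in 5 of 8. Since SMART-seq2 counts carry no molecular identifiers, a lower share of a larger pool and a lower amount per cell cannot be told apart for any of these genes. When the cells of each host were divided at the median number of genes detected, a division added after the data were seen, 0 of the 9 genes were called among the cells with fewer genes (133 cycling and 183 G1 cells) and 0 among the others (256 and 65 cells, 7 hosts). Calls over all genes were also fewer, at 78 higher and 10 lower of 9464 tested among the cells with fewer genes. Among the others they were 67 and 7 of 10237. All 9 fitted log2 changes of the class II genes stayed negative on both sides. Among the cells with fewer genes *Cd74* differed by -0.25 ± 0.14 and *H2-DMb2* by -0.44 ± 0.22, both lower in 8 of 8 hosts, while *H2-Ab1* differed by -0.05 ± 0.10 and *H2-Eb1* by -0.06 ± 0.14. Among the cells with more genes the chains were further below 0. There *H2-Ab1* was at -0.22 ± 0.06 and *H2-Aa* at -0.21 ± 0.12, both lower in 7 of 7 hosts, and *H2-Eb1* at -0.19 ± 0.13, lower in 6 of 7. *H2-Ob* differed by -0.74 ± 0.81 among the cells with fewer genes, lower in 8 of 8 hosts. That mean leans on A7 at -2.65, while the other hosts lay between -0.76 and -0.02. Among the cells with more genes *H2-Ob* differed by -0.25 ± 0.44, lower in 4 of 7. *Ciita* differed by -0.62 ± 0.76 (lower in 7 of 8 hosts) and by -0.76 ± 0.97 (5 of 7), in the same order.

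The drop in cycling cells was not tested as particular to class II. Of the 2 other class II chains tested 0 were called, and both were below 0, with a median log2 change of -0.23. Of the 4 B cell markers reported here 3 (*Cd79a*, *Cd79b* and *Pax5*) were called lower in cycling cells, at log2 changes of -0.31, -0.48 and -0.51 (edgeR adjusted p = 0.0313, 0.00379 and 0.0498), and *Cd22* at -0.41 (0.132) was not. Of 4 LZ markers 2 were called lower: *Cd83*, which protects surface class II from the ubiquitin ligase MARCH1, at -0.85 (edgeR adjusted p = 0.00555) and the costimulatory *Cd86* at -0.78 (0.0364). Of 5 dark zone markers 1 was called higher and 1 lower. The median log2 change was 0.75 over the dark zone list and -0.70 over the LZ list. The dark zone list includes *Ccnb2*, a G2M gene that the phase call itself uses, so its values are in part fixed by the division. The part of zone in the cycling difference was not tested. Of 7 antigen processing genes tested 2 were called lower, *Ifi30*, the lysosomal thiol reductase, at -0.82 (0.0454) and the cathepsin *Ctsh* at -0.45 (0.0334), while *Lgmn* was at 0.11 and *Ctsb* at -0.46 without passing. Of 10 class I presentation genes tested 0 were called. *H2-K1* and *Tapbp* were nearest, at -0.32 (0.0658) and -0.66 (0.0595). Of the 6 factors tested that act on class II promoters (*Rfx5*, *Rfxank*, *Nfya*, *Nfyb*, *Nfyc* and *Creb1*) 0 were called, and *Marchf1* at -0.51 (0.141) was not called either. *Rfx5* had a count in 4.24% of cells and *Rfxap* in 1.10%, so these were near the limit of detection. The proliferation markers *Mki67* and *Top2a* were higher by 3.24 and 4.50 on the log2 scale, which only checks the division, since the phase call itself uses these genes.

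The cycling difference was compared between treatments to ask whether acalabrutinib changed it. For *Cd74* the difference within hosts was -0.49 ± 0.13 (SD, n = 5) under acalabrutinib and -0.33 ± 0.16 (n = 3) under vehicle, and for *Ciita* -0.88 ± 0.32 and -0.52 ± 0.23. The interaction terms of the 9 genes lay between -0.37 ± 0.34 (standard error) for *Ciita* and 0.10 ± 0.24 for *Ctss*. edgeR called 0 of the 9, 0 (0%) of all 12686 genes tested, and 392 genes had an unadjusted p under 0.05, none of them a class II gene.

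Myc-positive cells did not differ from Myc-negative cells in class II transcripts beyond the test. All 9 genes had a fitted log2 change below 0, between -0.05 ± 0.11 (standard error) for *H2-DMb2* and -0.37 ± 0.49 for *Ciita*, and 0 of the 9 were called, while 0.0551% of all 12715 genes were (0.0393% higher and 0.0157% lower). *Cd74* was at 1391, 1697 and 2030 CPM (lowest, median and highest host) in Myc-positive and at 1549, 1948 and 2305 CPM in Myc-negative cells, lower in 6 of 8 hosts, with a log2 change of -0.19 ± 0.07 and an edgeR adjusted p of 0.440. *H2-DMa* was at 453 ± 38.8 CPM (SD, n = 8) against 531 ± 49.7, lower in 7 of 8 hosts, with an edgeR adjusted p of 0.560. These were the only 2 of the 9 with an unadjusted p under 0.05. DESeq2 called 0 of the 9 as well, and 237 of all genes higher and 933 lower.

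The median log2 change over all genes tested was -0.42 in this comparison and -0.14 over the class II genes. Myc-positive cells had more counts and genes (medians of 890495 and 4329, against 751578 and 3800) and were more often cycling (70.6% against 57.4%). Within cycling cells alone (5 hosts) *Cd74* differed by -0.14 ± 0.13 and within G1 cells (4 hosts) by -0.22 ± 0.25, with 0 of the 9 genes called in either. Of all genes tested (12645 and 10074) 0 were called as well.

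Around the class II genes, *Nfkbia*, a target and inhibitor of NF-κB, was the 1 gene of the lists called higher in Myc-positive cells, at a log2 change of 1.70 (edgeR adjusted p = 0.0236), in 8 of 8 hosts. No gene was called when A8, A10, A11, V5, V7 or V9 was left out, so this call rests on each of them. *Cd86* was at 0.47 (0.380) and *Cd83* at 0.33 (0.646), neither past the threshold. *Ciita* was the least certain of the class II genes. Its level in Myc-positive cells ran from 15.1 CPM in A7, which has 5 such cells, to 252 CPM in V7, with a median of 104 over hosts, against 101 to 182 in Myc-negative cells. Its fitted Myc change was -0.0061 without A7 and ran from -0.60 to -0.0061 without 1 host, and that of *Ctss* from -0.26 to -0.012. The change of the Myc difference with acalabrutinib was called for 0 of the 9 genes and 0 (0%) of all genes by edgeR, with 255 genes at an unadjusted p under 0.05 and none of the class II genes among them.

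Across the cells of a host, the pairwise correlations were highest among the structural chains and the invariant chain. The Spearman correlation of CPM across cells, averaged over the 8 hosts, was 0.64 for *H2-Ab1* with *H2-Eb1* (0.53 to 0.75 over hosts), 0.61 for *H2-Aa* with *H2-Ab1*, 0.56 for *H2-Ab1* with *Cd74* and 0.45 for *H2-Eb1* with *Cd74*. Over all 36 pairs of the 9 genes the median was 0.18, and 35 pairs were above 0. *H2-DMb2* had correlations of 0.36 with *H2-Ab1* and 0.31 with *Cd74*, and *H2-DMa*, its partner in DM, correlated with it at 0.22.

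*Ciita* correlated with its target genes at 0.05 (*H2-DMa*) to 0.17 (*H2-Ob*), with 0.13 for *Cd74* and for *H2-Aa*. *Ctss* correlated with the others at -0.06 to 0.10. *Ciita* and *Ctss* are sparse counts, so such values are weak and no finding.

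**Figure D4:**
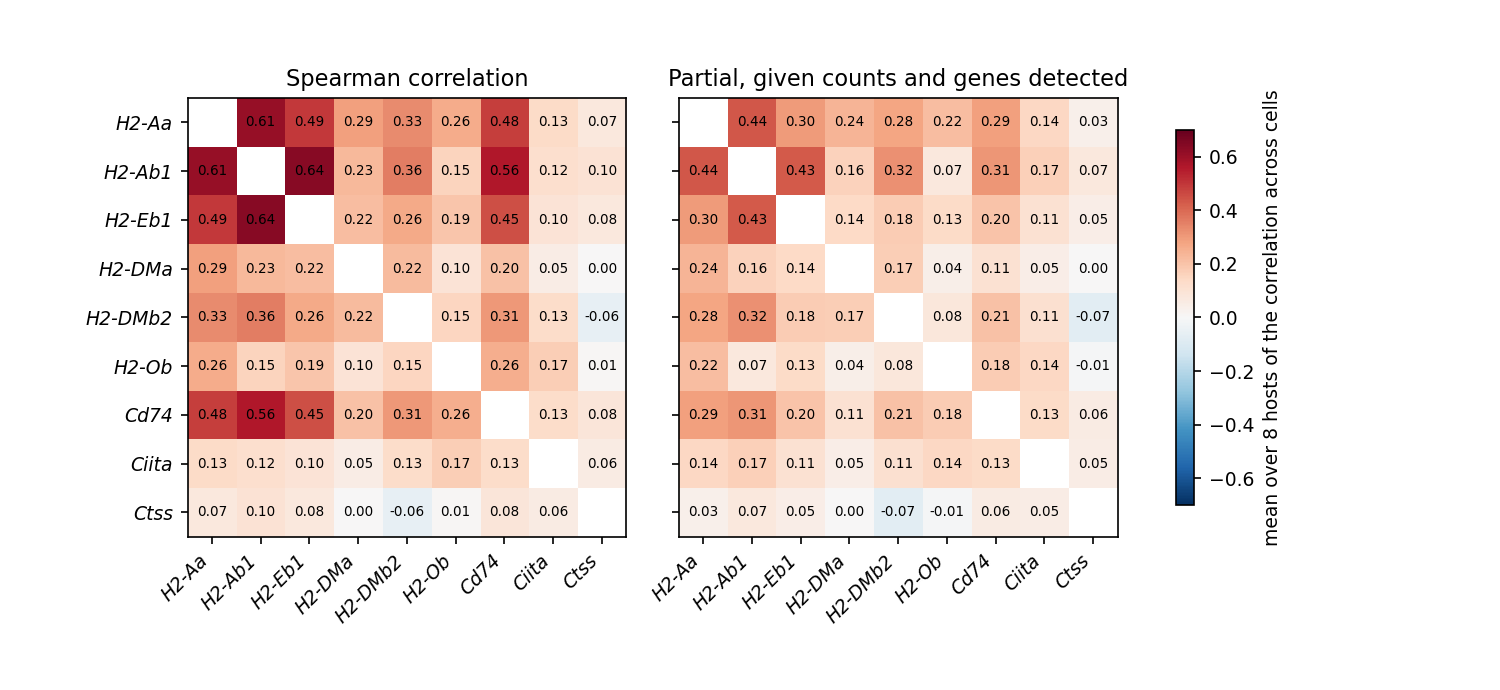
Correlation across the cells of a host between pairs of the 9 genes, as the mean over 8 hosts of Spearman's correlation (left) and of the partial correlation given total counts and genes detected (right). Colour runs from blue (-0.7) to red (0.7). The highest values in both panels are those of *H2-Ab1* with *H2-Aa* and with *H2-Eb1*, and *Ciita* and *Ctss* are pale throughout.

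Part of this was shared with depth. The class II sum per cell correlated with the genes detected at -0.64 (mean over hosts, -0.74 to -0.42) and with total counts at -0.56. Given both, the median over the 6 pairs among *H2-Aa*, *H2-Ab1*, *H2-Eb1* and *Cd74* went from 0.53 to 0.30, with *H2-Aa* and *H2-Ab1* at 0.44. This group no longer stood apart: *H2-Ab1* with *H2-DMb2* was at 0.32, above *H2-Ab1* with *Cd74* (0.31), *H2-Aa* with *H2-Eb1* (0.30) and *H2-Eb1* with *Cd74* (0.20). The S and G2M scores correlated with the sum at -0.39 and -0.41, and at -0.19 and -0.20 given depth. These are descriptions over cells that share a host, plate and pool.

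The genes most like the class II sum were sought among 5704 genes with a count in at least 25% of cells, whose median correlation with it was -0.07. The 10 highest were *Actb* (0.61), *Gucy1b2* (0.55), *Afm* (0.54), *Pfn1* (0.51), *Cd79b* (0.51), *Cd79a* (0.50), *Rn18s-rs5* (0.49), *Eef1a1* (0.48), *mt-Rnr2* (0.48) and *Gm26820* (0.46). *Actb* and *Pfn1* encode actin and profilin, *Cd79a* and *Cd79b* the signalling chains of the B cell receptor, *Eef1a1* a translation factor, and *Rn18s-rs5* and *mt-Rnr2* ribosomal RNA. Given total counts and genes detected, *Gucy1b2* and *Afm* went to 0.03 and 0.01, and *Actb* to 0.35.

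Ranked by that partial correlation, an order added after the data were seen, the first was *Cd83* at 0.35 (0.22 to 0.44 over hosts, above 0 in 8 of 8), followed by *Actb*, *Pfn1* (0.32), *Cd53* (0.31) and *Cd52* (0.30). *Cd83* has a count in 85.9% of cells and is not one of the 10 genes. *Cd86* was at 0.21, *Ctsh* and *Ctsz* at 0.13, *H2-K1* and *H2-D1* of class I at 0.11 and 0.16, and *Marchf1*, whose product removes class II from the surface, at 0.02. At the other end stood proliferation genes, among them *Ncapd2* (-0.39), *Rrm2* (-0.39) and *Mki67* (-0.39) before and -0.16, -0.18 and -0.15 after depth was taken into account.

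**Figure D5:**
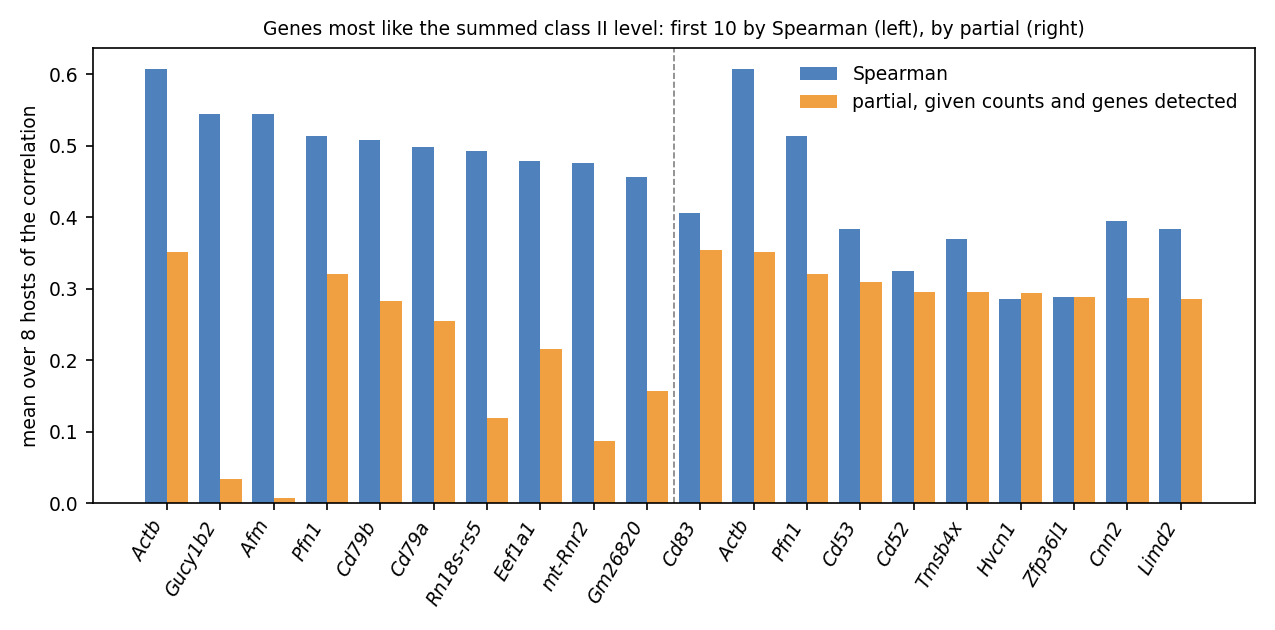
Correlation with the class II sum per cell (mean over 8 hosts) of the 10 genes highest by Spearman's correlation (left of the dashed line) and the 10 highest by the partial correlation given total counts and genes detected (right). Blue bars are Spearman's correlation and orange bars the partial one. *Gucy1b2* and *Afm* are near 0 in the partial correlation, and *Cd83* is first by it.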

How the data were processed

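Per the study's methods, the authors aligned SMART-seq2 reads to GRCm39 with STARsolo 2.7.10a, taking reads that overlap exons or introns of a gene. They deposited 1 matrix of counts per gene and cell, not normalized. The file name holds the term umiDedup-Exact, which names an exact removal of duplicates and does not say how reads were matched. The labels also name GRCm38, which the study's methods give for its bulk RNA-seq. No role of GRCm38 in the single-cell counts is stated there. Host totals were 26778559 to 114987280 counts. A deposited list of read files names 685 cells, and the matrix lacks 48 of these. Intervals and standard errors cover neither amplification nor counting of copies.

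The 10 genes and all lists were chosen with earlier results of these data known. Named beyond the 10 were genes of the lists and the 10 most correlated with the class II sum among genes in at least 25% of cells; *Cd53* and *Cd52* were named after their values were seen. Phases came from Seurat 5.3.0 (43 S and 54 G2M genes) on log-normalized counts in R 4.3.3. Counts were summed per host, or per host and state with at least 5 cells in each, and tested with edgeR 4.0.16 (estimateDisp, glmQLFit, glmQLFTest, TMM, filterByExpr, Benjamini-Hochberg over all genes, threshold 0.05). The states of a host come from the same animal, so host was a block. The deviations of both states from their means correlated within hosts between 0.000723 and 0.15 (cycling) and between -0.03 and 0.09 (Myc). Standard errors are the fitted change over the root of F. Per the study's methods the cells came from more than 1 independent experiment. Nothing says which hosts were treated on the same day. DESeq2 1.42.0 and limma 3.58.1 were alternatives, and differences within hosts are of log2(CPM + 1). The edgeR step was tested on simulated data. Thinning to the 10th percentile left out 64 cells. Where a symbol stands in several rows, the first was used. The 10 genes have 1 row each. Python 3.11.15 with NumPy 2.4.6, SciPy 1.17.1 and pandas 2.3.3 did the rest. One gene of the marker lists is not reported here.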

Additional observations from a re-analysis of the deposited data

Results flagged for a closer look

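Of 27 sets of values over the acalabrutinib hosts that were looked at (the level, the cycling difference and the Myc difference of each of the 9 genes), 1 held a host far from the others by Dixon's ratio, and chance marks about 1 in 20. It was the Myc difference of *Ciita* in host A7, at -3.51 on the log2 scale, while the other 4 acalabrutinib hosts lay between -0.13 and 0.61. A7 has 5 Myc-positive cells, the fewest of the 8 hosts. No interaction of a class II gene with treatment passed the test.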

How the results depend on the processing

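Without the replicate block, which leaves host out of the model, 4 of the 9 genes were called lower in cycling cells, against 7 with it, and 0 differed in Myc-positive cells. The host pairs the states because both come from the same animal. The count was 0 among cells with fewer genes than their host's median and 0 among the others, both added after the data were seen and with fewer cells in each fit. Under the other cycling alternatives (DESeq2, library size scaling, no filter, thinning, limma on mean CPM, summed symbols, *Mki67* and *Top2a* counts, score above the host median, S or G2M cells) it was 5 to 9, and 6 to 8 without 1 host. *Mki67* and *Top2a* are among the genes of the phase call, so that alternative is not independent of it. All 9 changes were negative in each of these fits. The counts for treatment and Myc were 0 in every alternative run, and those for both interactions 0 without any 1 host. Requiring 10 counts moved the mean share of cells over the 9 genes from 90.8% to 88.2%.

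Over all genes, DESeq2 called 1371 higher and 691 lower in cycling cells, against 312 and 160. No block gave 311 and 131, no filter 198 and 72 and *Mki67* and *Top2a* counts 196 and 73. S cells gave 226 and 75, G2M cells 223 and 119, the cells with fewer genes 78 and 10 and those with more 67 and 7. Without V9 it was 200 and 89, without A8 207 and 102, without A12 217 and 93, and without V7 215 and 96. For Myc, limma gave 11 higher and 8 lower, no block 15 and 8, no filter 1 and 0, thinning 1 and 1, and leaving out A8, A10, A11, V5, V7 or V9 gave 0. These counts say nothing of which genes were shared.

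Treatment changes near 0 turned sign, with none called: *Ctss* to 0.021 (library size scaling) and 0.012 (limma), *H2-Eb1* to -0.0039 (no filter), -0.017 (thinning) and -0.0015 (G1 cells), *H2-DMa* to 0.15 and *Cd74* to 0.027 (G1 cells). Without 1 host they ran from -0.19 to 0.067 for *Cd74*, -0.092 to 0.13 for *Ciita*, -0.15 to 0.17 for *Ctss*, -0.20 to 0.066 for *H2-Ab1*, -0.22 to 0.040 for *H2-DMa*, -0.24 to 0.037 for *H2-DMb2*, -0.12 to 0.092 for *H2-Eb1* and -0.29 to 0.00058 for *H2-Ob*, and the Myc change of *H2-DMb2* from -0.11 to 0.020. The genotypes were not fitted apart, because the cell names carry no genotype. Cells were few in some hosts. In the treatment comparison, where no host holds both groups, a change under the spread between hosts was not detectable.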

Other observations

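*Prdm1*, which encodes BLIMP1, a factor that represses *Ciita* as B cells turn into plasma cells, had a count in 40 of the 637 cells (6.28%). Only 17 cells held at least 10 *Prdm1* counts. The values are given over pooled cells of all hosts, with no test, and depth and cycling state of the 40 cells were not compared. In these 40 cells *Cd74* was at 1541 CPM, against 1842 in the other cells, *H2-Ob* at 551 against 764, *H2-DMa* at 388 against 509 and *Ciita* at 112 against 125 CPM. *Ctss* was at 306 against 305 CPM. The median over cells was 1559 against 1871 CPM for *Cd74* and 981 against 984 CPM for *H2-Eb1*. A *Ciita* count was found in 57.5% of the 40 cells and in 68.2% of the others. *Xbp1* and *Irf4*, other genes of the plasma cell program, were at 758 against 332 and at 201 against 27.4 CPM. An *Irf4* count was found in 30% of the 40 cells and in 8.54% of the others.

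*H2-Eb2*, a beta chain gene close to *H2-Eb1*, was at 200 ± 32.1 CPM (SD, n = 8 hosts) with a count in 50.2% of cells, and *H2-DMb1* at 162 ± 31.4 CPM in 71.3%. Neither went with the class II sum across cells (partial correlations of -0.07 and 0.01). *H2-Ea* had a count in 0.628% of cells.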
